A study of Mus musculus with 9 samples.

Results

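The regions described are the last 2 Mb of each of the 19 mouse autosomes, the stretch beside the telomere that lies away from the centromere. A chromosome end was taken as all StyI fragments with a midpoint within 2000000 bp of the last fragment end of chromosomes 1 to 19, after the final interval of each chromosome, which has no second StyI site, was left out. The 19 ends held 48327 fragments of the 3053721 that were used, against 2823620 on the rest of the same chromosomes. The rule for an end uses position only, not its counts or fragment lengths.

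Telomeres are repeat arrays that cap linear chromosomes, and the DNA next to them mixes unique genes with duplicated sequence. In mouse the centromere of each autosome lies near one tip, so the regions described here are the tips that lie far from it. In human cells, telomeric DNA has been described as held by the salt-insoluble nuclear matrix, the material that the assay used here recovers.

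The cells were E14Tg2a, a line of mouse embryonic stem cells of 129P2 background that was kept undifferentiated with LIF. In HRS-seq, high salt extracts the nuclei, and StyI, a restriction enzyme, then cuts their DNA. The DNA that stays with the insoluble material is called high-salt recovered sequence (HRS) and the DNA that is released is called Loop, and short tags from the StyI ends are sequenced. There were 3 HRS libraries, 3 Loop libraries numbered alike and 3 libraries of unfractionated genomic DNA (input) titled D0, D12 and D21, numbered here as replicates 1, 2 and 3, from cells of 1 line. The labels give no genotype or treatment that differs between groups, but they do not explain the titles D0, D12 and D21, and taking these inputs as 1 group was a choice.

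Library totals ran from 39051731 to 62928317 counts, and the 19 ends held between 780874 and 1158451 counts per library. The median end fragment had 9 to 20 counts, and 79.7% to 84.2% of end fragments had at least 1 count. Whether separate cultures were used is not in the labels, and the p-values therefore cover only the variation among these libraries, which may be technical. Replicate 3 of both fractions was the highest or lowest library of its fraction at most ends. More recovery in HRS and less in Loop cannot be told apart in a ratio of HRS over Loop, so input values are given beside it.

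As a class, the ends were cut slightly more finely by StyI than the rest of their chromosomes, but they differed among themselves in both directions. The median end fragment was 495 bp long, against 537 bp on the rest of chromosomes 1 to 19, and the ends had 1272 fragments per Mb, against 1188. Fragments of up to 200 bp made up 24.7% of the fragments in the ends and 23.5% of those elsewhere. The median was shorter than on the rest of the chromosome at 9 ends and longer at 10. The end of chromosome 7 had the shortest median, 358 bp, against 501 bp on the rest of that chromosome. The ends of chromosomes 4, 11 and 2 followed with 368, 384 and 398 bp, where the rest of their chromosomes had 529, 499 and 533 bp. Chromosome 13 had the longest, 691.5 bp, against 549 bp on its rest, followed by chromosomes 12 and 14 with 648 and 640.0 bp, against 531 and 548 bp. The ends thus ranged from 358 to 691.5 bp, while the rests of the chromosomes lay between 499 and 595 bp.

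Fragment length bears on the counts because the fractions differ in the lengths they hold. In the ends, fragments of up to 200 bp took 30.4%, 30.8% and 33.8% of the counts in the HRS libraries, 48.5%, 54.6% and 56.3% in the Loop libraries, and 26.9%, 28.4% and 27.7% in the inputs. Every HRS library lay below every Loop library and above every input. HRS averaged 31.7 ± 1.86%, Loop 53.1 ± 4.11% and input 27.7 ± 0.777% (SD, n = 3 each). The rest of the chromosomes had the same order. As a difference between ends and rest, the HRS libraries averaged 1.54 ± 0.184 percentage points more short-fragment counts in the ends, the Loop libraries 1.36 ± 0.607 and the inputs 1.36 ± 0.06 (SD, n = 3 each). HRS and Loop overlapped in this difference (exact two-sided permutation test, p = 0.8, adjusted p = 1.0 over the 3 comparisons), as did Loop and input (p = 1.0), while HRS lay above input without overlap (exact permutation p = 0.1, the smallest possible, adjusted p = 0.3). A second fit was therefore run for each comparison, called length corrected, in which the counts expected from fragment length enter as an offset. Part of its calls and ratios are given below. The fitted ratio of a single end is uncorrected unless length correction is named beside it.

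Pooled over the 19 ends, the chromosome ends took a slightly larger share of the HRS counts than of the input counts. The ends held 1.89%, 1.89% and 2.04% of the autosomal counts in the HRS libraries, 1.86%, 1.88% and 1.91% in the Loop libraries, and 1.85%, 1.82% and 1.804% in the inputs. All HRS and all Loop libraries lay above all inputs, whereas HRS and Loop overlapped. HRS averaged 1.94 ± 0.0874%, Loop 1.88 ± 0.0251% and input 1.83 ± 0.0241% (SD, n = 3 each). Without chromosomes 8 and 11 HRS averaged 1.88 ± 0.064%, Loop 1.85 ± 0.0197% and input 1.797 ± 0.0243%, and the difference of HRS minus Loop was 0.0259 percentage points, against 0.0569 with them (exact permutation p = 0.8 and 0.4). By exact two-sided permutation the difference between HRS and Loop had p = 0.4, and those of HRS and of Loop against input had p = 0.1 each, the smallest that 3 against 3 libraries can give (adjusted p = 0.15 over the 3 comparisons).

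Fragments of like length gave a clearer order. Among fragments of up to 200 bp, the ends took 2.04 ± 0.0979% of the HRS counts, 1.93 ± 0.006% of the Loop counts and 1.92 ± 0.0242% of the input counts. Among fragments over 2000 bp they took 1.69 ± 0.0542% of the HRS counts, 1.60 ± 0.0117% of the Loop counts and 1.57 ± 0.0262% of the input counts (SD, n = 3 each). In each of the 5 length classes examined the 3 HRS libraries lay above the 3 Loop libraries and above the 3 inputs without overlap, while Loop and input overlapped (exact permutation p = 0.1 for HRS against Loop in each class, the smallest possible).

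The 2 Mb next to the ends went the other way. Between 2 and 4 Mb from the last site, 2.05%, 2.06% and 2.15% of autosomal counts fell in the HRS libraries, against 2.19%, 2.22% and 2.25% in Loop and 2.18%, 2.16% and 2.16% in input, so HRS was lowest there. Counts in the ends divided by counts in that adjoining stretch came to 0.92, 0.919 and 0.949 in HRS, 0.85, 0.847 and 0.85 in Loop, and 0.85, 0.845 and 0.834 in input. The ratio was higher in every HRS library than in every Loop library and every input (means 0.929 ± 0.0169, 0.849 ± 0.0017 and 0.843 ± 0.0079, SD, n = 3 each, exact two-sided permutation p = 0.1 for HRS against either, adjusted p = 0.15). The first 2 Mb covered at the centromeric tip had a higher HRS share too, 1.61 ± 0.0679% in HRS, against 1.46 ± 0.0103% in Loop and 1.46 ± 0.0278% in input (exact permutation p = 0.1 for HRS against either, adjusted p = 0.15). Over all fragment lengths together, the mean HRS share was thus above the Loop share at both tips of the covered autosomes. In that measure the groups did not overlap only at the centromeric tip, which was not split by fragment length.

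**Figure D1:**
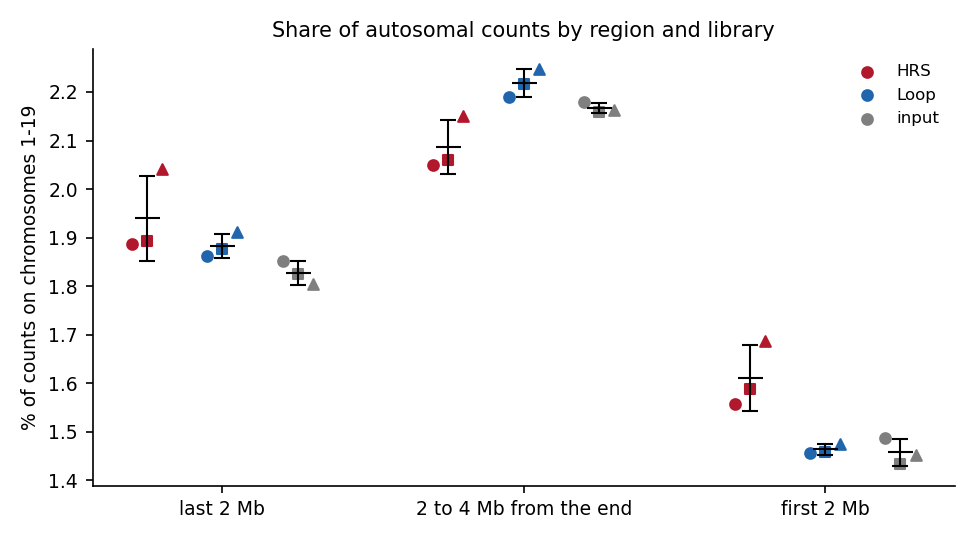
Percent of the counts on chromosomes 1-19 (y axis) that lay in the last 2 Mb, 2 to 4 Mb from the end and in the first 2 Mb. Each point is a library (circle, square and triangle for replicates 1, 2 and 3), coloured for HRS, Loop and input, and bars are the mean ± SD of 3 libraries. In the last 2 Mb the HRS and Loop points overlap and both lie above the input points, and between 2 and 4 Mb the HRS points are the lowest. The y axis does not start at 0.

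Set end by end, the chromosomes differed in direction. Among the 19 ends, 3 were higher in HRS than in Loop and 3 were lower (edgeR's quasi-likelihood test over 1301 windows of 2 Mb counted back from the chromosome ends, Benjamini-Hochberg adjusted p of 0.05). Over all 1301 windows 14.8% were called higher and 21% lower, so the share of ends called was near that of the genome. The median log2 ratio of HRS over Loop was 0.07 among the ends and -0.01 among all windows, and 12 of 19 ends had a ratio above 0. The standard deviation of the ratios was 0.22 over the ends and 0.20 over all windows.

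Chromosome 10 was the end with the highest ratio of HRS over Loop in the uncorrected fit. Its last 2 Mb had 700.1, 697 and 663 CPM (counts scaled to the library total) in the HRS libraries, 513, 511 and 491 in the Loop libraries and 536, 534 and 517 in the inputs. All 3 HRS libraries lay above all Loop libraries and inputs. The fitted fold was 1.37 over Loop (log2 0.45 ± 0.03 SE, edgeR quasi-likelihood adjusted p = 0.000109) and 1.38 over input (log2 0.46 ± 0.04, adjusted p = 4.73e-05). The fits scale libraries by TMM factors, not by their totals, and fitted ratios over input are higher than those of the CPM. Over all 1301 windows the median log2 ratio of HRS over input was 0.0052 with TMM and -0.0776 with library totals. This end is cut coarsely, with a median of 609.5 bp, and length correction left the ratio over Loop at 0.44. In that fit the ends of chromosomes 11 and 15 had higher ratios, 0.51 and 0.50. The most distal protein-coding genes there in the GRCm38 assembly are vomeronasal receptors (Vmn2r87 to Vmn2r84), which detect pheromones, followed by Tespa1, Neurod4 and olfactory receptors. That assembly is not the one of the files, so genes are named as neighbours of the chromosome tip and are not tied to fragments.

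Chromosome 15 came second in the uncorrected fit. Its end had 1675, 1590.0 and 2002 CPM in the HRS libraries, 1353, 1359 and 1360.0 in the Loop libraries and 1372, 1330.5 and 1267 in the inputs. HRS replicate 3 was the highest of the HRS libraries, and the groups did not overlap. Relative to Loop the log2 ratio was 0.38 ± 0.12 (SE, a fold of 1.31, edgeR quasi-likelihood adjusted p = 0.0381) and relative to input 0.50 ± 0.12 (adjusted p = 0.00973). With fragment length corrected the ratio over Loop was 0.50 (adjusted p = 0.016). The call over Loop was lost when HRS replicate 1 or any 1 Loop library was left out (adjusted p of 0.0642 to 0.117), with ratios of 0.37 to 0.45, and the call over input when input replicate 2 or 3 was left out (0.0567 and 0.0668). Without HRS replicate 3 the ratio over Loop was smaller, 0.24 ± 0.04, and still called (adjusted p = 0.00306), and that over input was 0.35. In GRCm38 the distal genes of this chromosome include Glycam1, a mucin-like ligand for L-selectin, Pde1b, a cyclic nucleotide phosphodiesterase, and Itga5, the fibronectin receptor subunit.

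Chromosome 6 was higher by a smaller amount. Its end had 822, 817 and 777 CPM in HRS, 747, 737 and 707 in Loop and 766, 766 and 747 in input, with no overlap between HRS and either of the other groups. The log2 ratio was 0.15 ± 0.02 over Loop (SE, edgeR quasi-likelihood adjusted p = 0.00256) and 0.17 ± 0.03 over input (adjusted p = 0.00297). With fragment length corrected the ratio over Loop was 0.14 (adjusted p = 0.00557). Mean CPM were 805 in HRS and 760 in input, a smaller difference than the fitted ratio over input.

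Chromosome 16 had the lowest ratio in the uncorrected fit. Its end had 904, 931 and 835 CPM in the HRS libraries, 1164, 1165 and 1122 in the Loop libraries and 1097, 1077 and 1126 in the inputs. Every HRS library lay below every Loop library and input. Its log2 ratio stood at -0.36 ± 0.03 over Loop (SE, edgeR quasi-likelihood adjusted p = 0.000224) and over input at -0.22 ± 0.04 (adjusted p = 0.00177). With fragment length corrected the ratio over Loop was -0.25 (adjusted p = 0.00192), and chromosome 1 was then the lowest, at -0.28. Distal genes of this chromosome in GRCm38 include Zbtb21, a zinc finger protein, Ripk4, a kinase needed in skin, and Tmprss2, a transmembrane serine protease.

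Chromosome 7 was lower in HRS than in Loop, and its difference was smaller with fragment length corrected. Its end had 1585, 1599 and 1665 CPM in HRS, 2018, 2071 and 2120.2 in Loop and 1923, 1889 and 1869.8 in input. HRS was lowest and Loop highest, without overlap. Relative to Loop the HRS value came to a log2 ratio of -0.35 ± 0.10 (SE, edgeR quasi-likelihood adjusted p = 0.025) before and -0.14 ± 0.08 (adjusted p = 0.216) after length correction. Against input it was -0.14 ± 0.10 (adjusted p = 0.269). The call over Loop was kept without HRS replicate 3 but was lost without any 1 of the other 5 libraries (adjusted p of 0.0759 to 0.148), at ratios of -0.38 to -0.30. This is the end with the shortest fragments, and in GRCm38 its distal genes include Ccnd1, which encodes the cell cycle protein cyclin D1, and the growth factor genes Fgf15 and Fgf4.

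Chromosome 1 was lower as well, with 664, 682 and 546 CPM in HRS, 816, 804 and 773 in Loop and 759.6, 837 and 845 in input. HRS replicate 3 was the lowest library, and the groups did not overlap. The log2 ratio was -0.33 ± 0.05 over Loop (SE, edgeR quasi-likelihood adjusted p = 0.00248) and -0.29 ± 0.06 over input (adjusted p = 0.00436), and -0.28 over Loop with length corrected. Distal genes of chromosome 1 in GRCm38 include Cr2 and Cd46, which encode complement receptors or regulators, and Cd34, a surface protein of blood progenitors.

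The other 13 ends were not called in the fit without pairing. Of these, chromosome 11 had the highest ratio and the widest spread. Its end had 2021, 2109 and 3088 CPM in the HRS libraries, 1770.4, 1853 and 2254 in the Loop libraries and 1827, 1661 and 1643 in the inputs. Replicate 3 was far above the other libraries of its group in HRS and in Loop, and HRS and Loop overlapped. The log2 ratio was 0.31 ± 0.22 over Loop (SE, edgeR quasi-likelihood adjusted p = 0.308) and 0.59 ± 0.19 over input (adjusted p = 0.0364). With fragment length corrected the ratio over Loop was 0.51 ± 0.21, the highest of the 19 ends but not called (adjusted p = 0.094). Without HRS replicate 3 the uncorrected ratio was 0.04 ± 0.12 over Loop (adjusted p = 0.763) and 0.32 ± 0.06 over input (adjusted p = 0.000114). Without replicate 3 of both fractions the ratio over Loop was 0.18 ± 0.05 and was called (adjusted p = 0.000247), where 887 of 1301 windows were called. Within each of the 3 pairs of equal number, HRS was above Loop, and the fit blocked by replicate number gave a ratio of 0.29 ± 0.11, which was called (adjusted p = 0.0162). As a share of the counts on chromosome 11 itself, the end held 2.98%, 3.03% and 3.55% in HRS, 2.68%, 2.72% and 2.83% in Loop and 2.66%, 2.58% and 2.57% in input, with no overlap between any of the groups. Scaled to its own chromosome the ratio over Loop was 0.21 (adjusted p = 0.0534).

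Among the remaining ends, the log2 ratios of HRS over Loop were 0.13 on chromosome 18, 0.12 on chromosome 3, 0.11 on chromosomes 2, 4 and 13, 0.07 on chromosome 5, 0.04 on chromosome 12 and 0.03 on chromosome 9. They were -0.0042 on chromosome 17, -0.02 on chromosome 14, -0.09 on chromosome 19 and -0.11 on chromosome 8. The adjusted p of these 12 ends ran from 0.0596 on chromosome 19 to 0.946 on chromosome 17 (edgeR quasi-likelihood test). The ends of chromosomes 2 and 4, both finely cut, had length-corrected ratios of 0.29 (adjusted p = 0.076) and 0.31 (adjusted p = 0.0807). HRS replicate 3 was the highest HRS library at 7 ends (chromosomes 2, 4, 7, 8, 9, 11 and 15) and the lowest at 11. Loop replicate 3 was the highest Loop library at 5 of those 7 ends and the lowest at 13 ends.

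The counts of called ends depended on the pairing and on replicate 3. Taking the replicate number as a block called 11 ends, 6 higher and 5 lower, adding chromosomes 3, 11 and 18 as higher and 8 and 19 as lower, with 54.8% of all windows called, against 35.8% without it. Without HRS replicate 3 the count was 11, 7 higher and 4 lower, with 56.0% of windows called. The 6 ends above were among the called ones, in the same direction, in both fits. Length correction alone called 5 of the 6, all but chromosome 7, with 21.9% of all windows called higher and 16.4% lower.

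**Figure D2:**
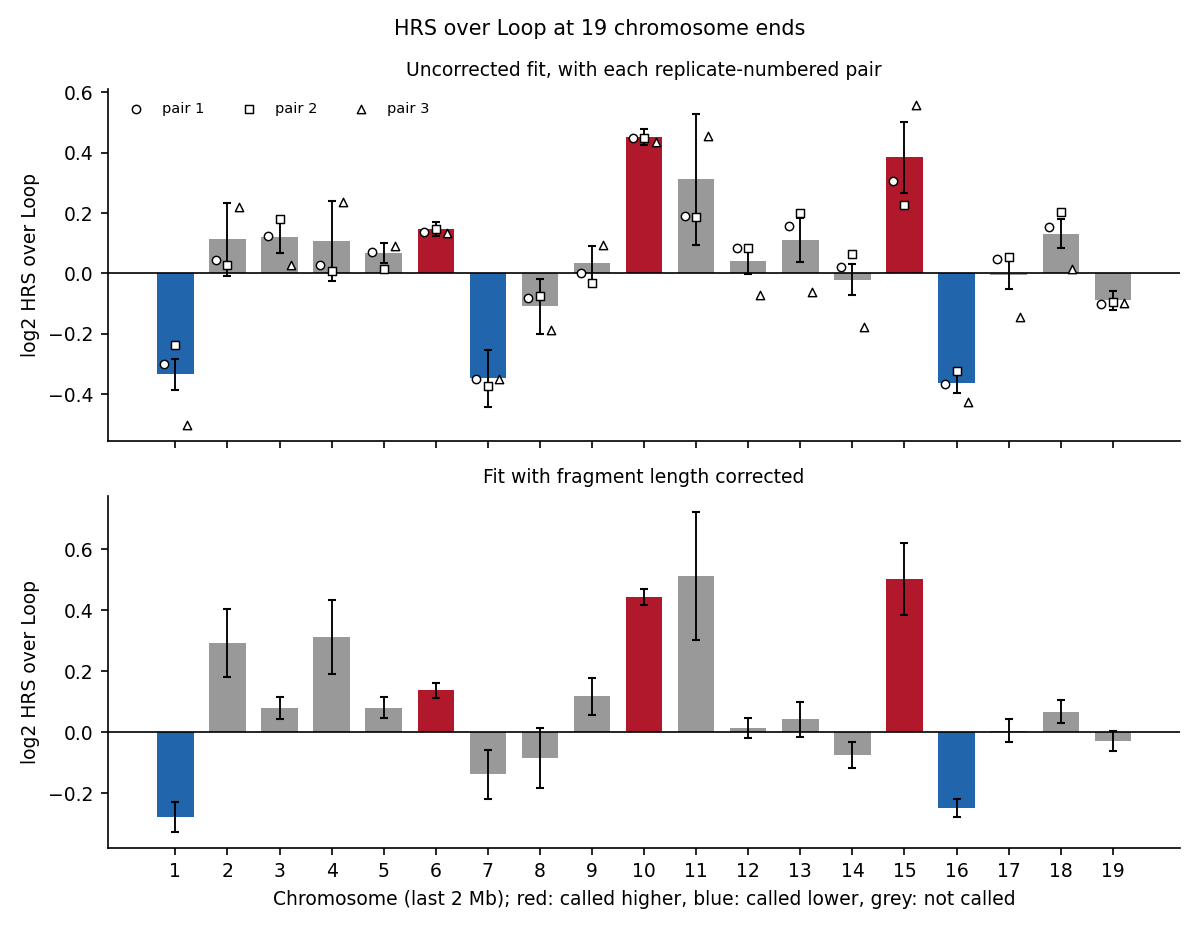
Log2 ratio of HRS over Loop (y axis) in the last 2 Mb of chromosomes 1 to 19 (x axis), from the uncorrected fit above and the length-corrected fit below. Bars are fitted ratios ± SE from 3 HRS and 3 Loop libraries, red where called higher, blue where called lower and grey where not called, and open symbols are the ratios of library totals for the 3 pairs of equal replicate number. Chromosome 10 reaches 0.45 with its 3 pairs close together, while the pairs of chromosomes 1, 11 and 15 spread apart at replicate 3.

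The position of an end relative to the rest of its chromosome varied. Among the 51 windows of chromosome 15 its end had the second highest ratio of HRS over Loop, and after length correction the highest. On chromosome 10 the end ranked 4 of 64 and on chromosome 18 it ranked 6 of 44. Chromosome 1 was at the other extreme, with rank 97 of 98, and chromosome 16 ranked 47 of 48. Length correction moved chromosome 18 from 6 to 11 of 44, chromosome 11 from 7 to 4 of 60 and chromosome 2 from 21 to 8 of 90. Chromosomes 10, 1 and 16 kept their ranks, and the remaining ends moved either way or not at all. The adjoining window, 2 to 4 Mb from the end, had a log2 ratio of 0.51 on chromosome 10, where the end had 0.45, but -0.59 on chromosome 2, where the end had 0.11, and -0.47 on chromosome 4, where the end had 0.11.

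Measured against input, 4 ends were higher in HRS and 2 were lower, where 22.7% and 14.2% of all 1301 windows were called (edgeR quasi-likelihood test, Benjamini-Hochberg adjusted p of 0.05). The 3 highest ends were chromosomes 11, 15 and 10, with log2 ratios of 0.59, 0.50 and 0.46, and chromosome 6 was the other called higher. The highest ratio of any end was 0.49 with library totals and 0.42 with own-chromosome scaling, so chromosome 11 was no higher than these there. The median of all windows was lower in these fits too, at -0.0776 and -0.0684, against 0.0052 with TMM. How much of the chromosome 11 value is particular to its end was not tested. The 3 lowest were chromosomes 1, 16 and 7, with -0.29, -0.22 and -0.14, of which chromosome 7 was not called. The length-corrected fit called the same 6 ends, with 39.3% of all windows called. Without input replicate 3 only 3 ends were called, 1 higher and 2 lower, with 19.1% of windows, and without HRS replicate 3 there were 12, with 48.3%. The call of chromosome 11 was lost without any 1 of the inputs (adjusted p of 0.06 to 0.146), at ratios of 0.52 to 0.63. Without HRS replicate 3 the order of the 3 highest was reversed, chromosome 10 having 0.45, chromosome 15 0.35 and chromosome 11 0.32. HRS over Loop and HRS over input share the HRS libraries, so these values do not stand apart from those above.

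The ratios of Loop over input spread less over the ends, with a standard deviation of 0.10, against 0.22 for HRS over Loop and 0.24 for HRS over input. For Loop over input, 0 of 19 ends were called, where 0.461% of all windows were, although 7 ends had an unadjusted p under 0.05 and DESeq2 called 6, with 21.1% of windows (edgeR quasi-likelihood test for the others). Without input replicate 1, edgeR called 7 ends and 35.0% of windows. The log2 ratios were highest on chromosomes 11, 7 and 2, with 0.23, 0.16 and 0.16, and lowest on chromosomes 13, 14 and 12, with -0.11, -0.09 and -0.08. The high ones are finely cut ends and the low ones coarsely cut ends. Across the 19 ends, which share their libraries, the ratio of Loop over input followed the percentage of fragments of up to 200 bp (Spearman's rho 0.88, Pearson's r 0.89, a description over 19 points). After length correction, the ratios of the 19 ends lay between -0.04 and 0.10 and ran weakly the other way with the percentage of short fragments (rho -0.54, r -0.58). HRS over Loop had no such relation with short fragments (rho -0.06).

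**Figure D3:**
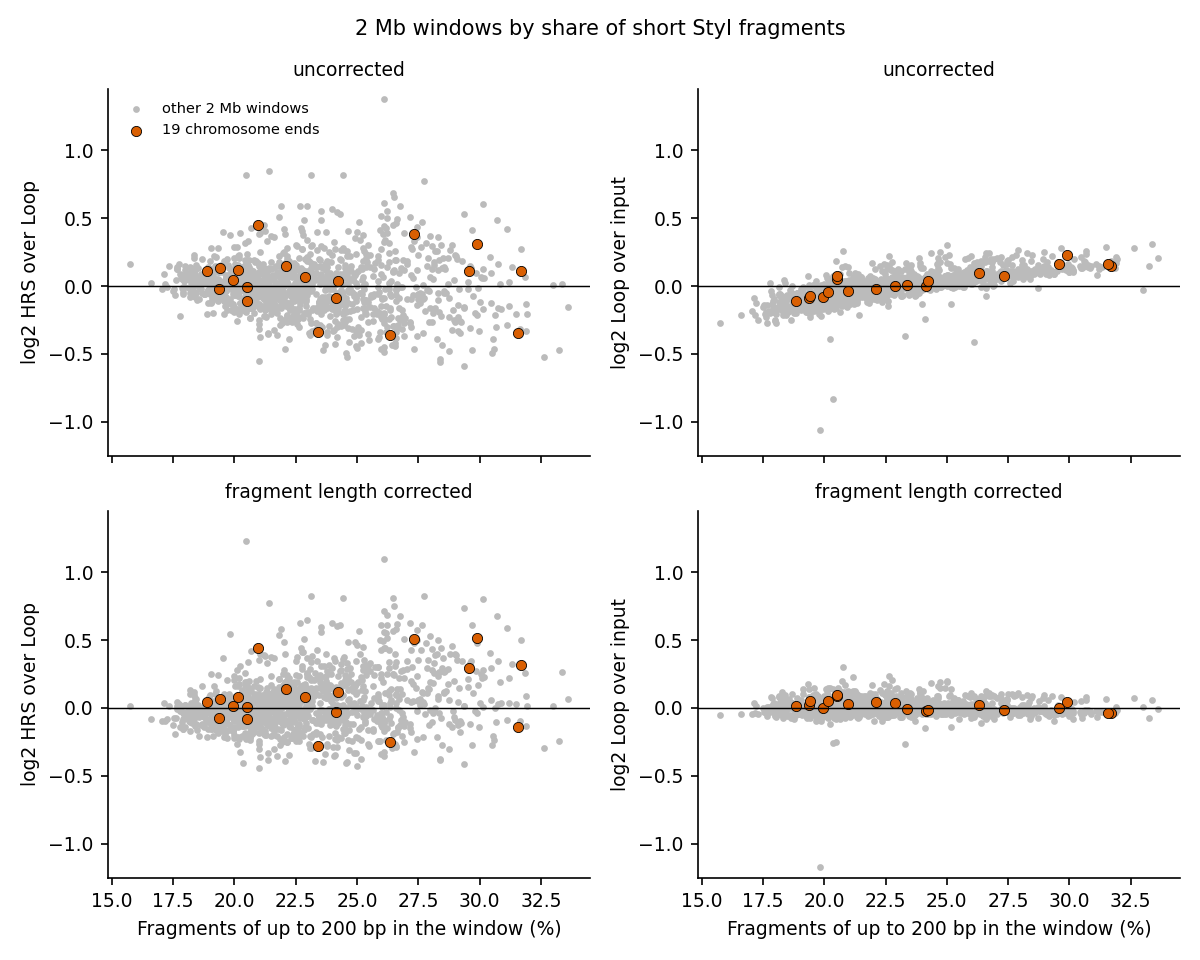
Log2 ratios (y axis) of HRS over Loop (left) and Loop over input (right) for 2 Mb windows by their percentage of fragments of up to 200 bp (x axis), uncorrected above and length corrected below. Orange points are the 19 chromosome ends and grey points the other windows. Loop over input climbs with the percentage of short fragments, at the ends as elsewhere, and after correction spans a narrower range in which the ends run slightly downward, while HRS over Loop scatters on both sides of 0.

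Inside the ends, HRS and Loop differed in patches. Of the 3739 bins of 10 kb tested in the ends (of 3806 with fragments), 764 were higher in HRS, or 20.4%, and 797 were lower, or 21.3%, against 17.8% and 20.4% of all 245823 bins tested (edgeR quasi-likelihood test, Benjamini-Hochberg adjusted p of 0.05). The median fold among called bins of the ends was 1.83 in the higher and 1.54 in the lower ones. With length corrected, 715 bins of the ends, or 19.1%, were higher and 359, or 9.60%, were lower, against 15.0% and 8.43% of all bins. For HRS over input 756 of 3758 bins of the ends were higher and 347 lower, where 15.2% and 9.16% of all bins were. For Loop over input 958 of 3753 bins were higher and 587 lower, where 21.5% and 18.0% of all bins were, but only 9 and 3 after length correction, where 0.266% and 0.0782% of all bins were. Counting only fragments over 200 and up to 2000 bp, 778 bins of the ends were called for HRS over Loop, against 1561 with all fragments. Without input replicate 2 or 3 the called bins for HRS over input came to 700 or 656, against 1103, and without input replicate 2 those for Loop over input to 1027, against 1545. Shares of all bins are not given for the fragment limit and these left-out inputs, so whether the changes are particular to the ends cannot be said.

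These bins were spread unevenly over the ends. The end of chromosome 15 had 87 bins higher in HRS and 35 lower, chromosome 4 had 67 and 51, and chromosome 6 had 66 and 34. At the other side, chromosome 7 had 18 higher and 116 lower, chromosome 16 had 20 and 102, and chromosome 1 had 7 and 68. With length corrected, chromosome 15 had 103 higher and 20 lower, chromosome 11 had 82 and 4, chromosome 2 had 81 and 16, and chromosome 14 had 3 and 2. Every end held called bins of both directions in the uncorrected fit, chromosome 1 included.

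The bin with the highest ratio lay on chromosome 2, about 1300.3 kb from the last site, at chr2:180440001-180450000 in mm9. It had 10.2, 10.5 and 12.1 CPM in the HRS libraries, 1.22, 1.60 and 0.63 in the Loop libraries and 3.15, 4.05 and 4.24 in the inputs. HRS lay far above and Loop far below the inputs, and the fold over Loop was 9.35 (log2 3.22 ± 0.21 SE, edgeR quasi-likelihood adjusted p = 3.31e-09), or a log2 ratio of 2.64 with length corrected. It rests on 7 fragments, of which one of 737 bp held 37.5% of the counts. The bin led a run of 8 adjoining called bins.

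The second bin was chr15:103070001-103080000, 419.3 kb from the last site, with 22.9, 20.9 and 34.0 CPM in HRS, 3.20, 3.32 and 3.51 in Loop and 4.87, 7.55 and 5.51 in input. Here HRS stood further off from input than Loop did, by a log2 ratio of 2.27, while Loop over input was -0.70. In the chromosome 2 bin these ratios were 1.66 and -1.58. The fold of HRS over Loop was 7.71 (edgeR quasi-likelihood adjusted p = 1.03e-08). Chromosome 15 gave 3 more of the 10 leading higher regions, with folds of 5.42, 5.33 and 4.59 at their top bins. The other leading regions lay on chromosomes 19 (fold 5.13), 11 (4.90 and 4.73), 4 (4.85) and 10 (4.52). In all 10 leading bins every HRS library was above every Loop library and every input, and all 10 had a length-corrected ratio of HRS over Loop between 1.77 and 2.83 on the log2 scale. These bins were picked for their ratio of HRS over Loop, and the comparison with input uses the same HRS libraries. The order of the groups in them is therefore a description and not a test.

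The leading lower bins were less extreme, and their single most counted fragments were short. Among called bins with 1 sign in all pairs and at least the median count, the lowest was chr16:96740001-96750000, 1571.5 kb from the last site, with 6.07, 7.09 and 5.40 CPM in HRS, 15.3, 15.3 and 14.5 in Loop and 10.5, 9.15 and 10.9 in input. HRS was the lowest and Loop the highest group, the fold of HRS over Loop being 2.47 downward (log2 -1.30 ± 0.15 SE) before and a log2 ratio of -0.67 after length correction (edgeR quasi-likelihood adjusted p = 0.00123). Its leading fragment was 53 bp long. The other 9 leading lower bins, on chromosomes 16, 6, 4, 7, 8, 15 and 9, had folds between 2.17 and 2.43. Their leading fragments were 23 to 207 bp long and held 8.92% to 25.8% of a bin's counts. After length correction, the one on chromosome 15 was no longer called (adjusted p = 0.275), and the ratio of Loop over input of all 10 lay between -0.07 and 0.12 on the log2 scale. In the chromosome 15 bin HRS overlapped input, with uncorrected log2 ratios of -0.05 for HRS and 1.07 for Loop over input. Uncorrected HRS over input was also not called on chromosome 8 and at chr16:97830001-97840000 (edgeR quasi-likelihood adjusted p = 0.0655 and 0.157). The remaining leading lower bins were called lower than input.

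Part of the difference lay in runs of adjoining called bins. The longest run in the uncorrected fit was 380 kb on chromosome 10, chr10:127990001-128370000, which starts at the inner limit of the last 2 Mb. The run had 399, 385 and 418 CPM in HRS, 205, 206 and 199 in Loop and 231, 223 and 211 in input, and every HRS library lay above every Loop library and every input. The remainder of that end had 301, 313 and 246 CPM in HRS, 308, 305 and 293 in Loop and 305, 311 and 306 in input, with HRS and Loop overlapping. In CPM, the higher HRS value of the chromosome 10 end lay within these 380 kb. The run was picked for its called bins, so its order of groups and a lower remainder follow in part from that choice. The split carries no test, and neither do those of the runs below.

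With length corrected, the longest run was 540 kb on chromosome 15, chr15:101850001-102390000, with 657, 618 and 797 CPM in HRS, 376, 376 and 382 in Loop and 393, 377 and 365 in input. Outside it the end of chromosome 15 had 1018, 972 and 1206 CPM in HRS, against 977, 983 and 978 in Loop, and the groups overlapped. In the uncorrected fit the longest runs of this end were only 140 and 120 kb, and outside either one HRS stayed above Loop without overlap, at log2 ratios of 0.33 and 0.32. A run of 410 kb on chromosome 4, chr4:154860001-155270000, had 535, 514 and 647 CPM in HRS, 319, 327 and 322 in Loop and 348, 326 and 309 in input. The rest of the chromosome 4 end had 1500.0, 1578 and 1784 CPM in HRS, against 1677, 1750.1 and 1738 in Loop, so a region higher in HRS and a remainder that overlapped Loop stood side by side in an end that was not called. Distal genes of chromosome 4 in GRCm38 include Isg15, an interferon-induced ubiquitin-like protein, and Agrn, which encodes agrin of the neuromuscular junction.

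At the lower ends, too, the difference went beyond single runs. The longest lower run was 200 kb on chromosome 7, chr7:152270001-152470000, with 179.6, 183 and 181 CPM in HRS, 269, 279 and 284 in Loop and 246, 238 and 235 in input. Outside that run the end of chromosome 7 still had 1406, 1416 and 1484 CPM in HRS, against 1749.8, 1793 and 1836 in Loop, with no overlap. On chromosome 16 the longest length-corrected lower run was 230 kb, and outside it the end had 811, 831 and 757 CPM in HRS, against 1009.9, 1009 and 973 in Loop, again without overlap. The lower ratio at these ends was spread over most of their length. The runs were picked for their values, so these splits are descriptions and carry no test.

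**Figure D4:**
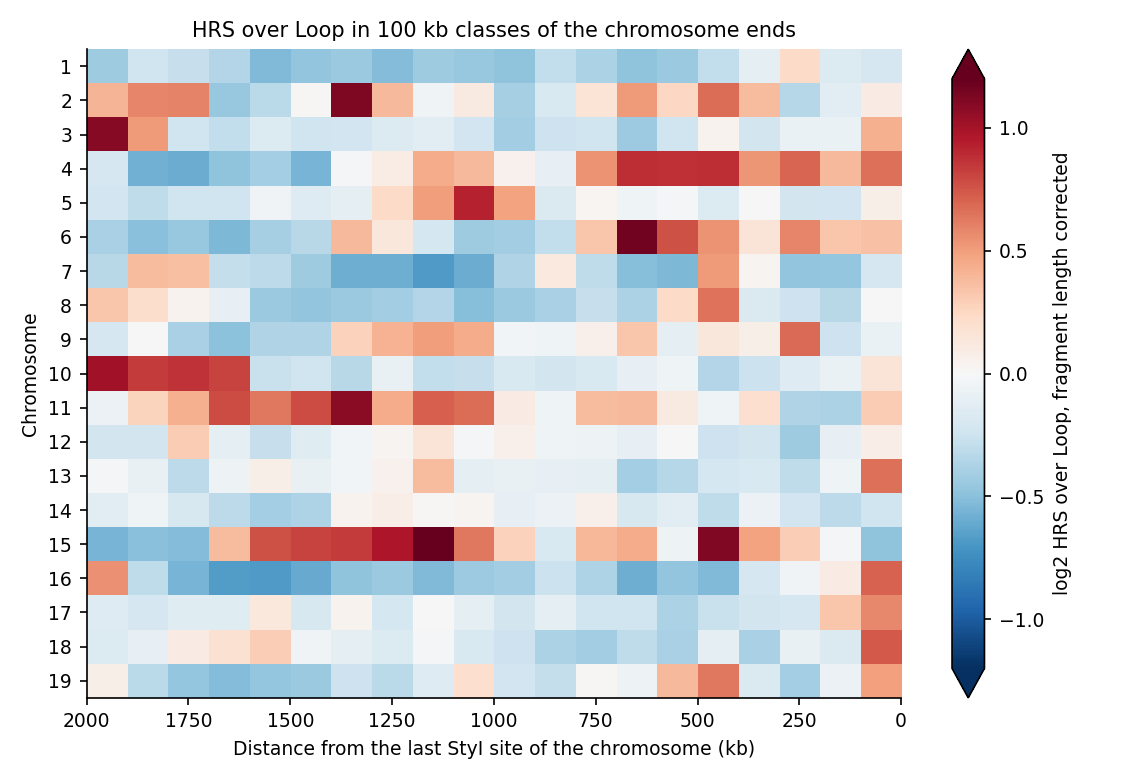
Length-corrected log2 ratio of HRS over Loop, from sums over the 3 libraries of each group, in 100 kb classes (columns, distance from the last StyI site in kb, with the chromosome tip at the right) of the last 2 Mb of chromosomes 1 to 19 (rows). Red is higher in HRS, blue lower, and the colour scale ends at 1.2 in each direction. Red blocks stand on chromosomes 10, 15, 11 and 4, chromosomes 1, 7 and 16 are blue over most of their length, and many rows turn red in the last class.

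With distance from the tip, the ratio did not follow a gradient. Pooled over the 19 chromosomes, the 20 classes of 100 kb in the last 2 Mb had length-corrected log2 ratios of HRS over Loop between -0.15 and 0.36, of which 13 were above 0. From 2 to 10 Mb the 16 classes of 500 kb had ratios between -0.15 and 0.20, of which 7 were above 0. The highest class lay 0.4 to 0.5 Mb from the last site (0.36), where chromosome 15 alone had a ratio of 1.11. The lowest in the ends lay between 0.8 and 0.9 Mb (-0.15). Single ends varied far more than the pooled profile, from -0.56 to 1.43 along chromosome 15 and from -0.35 to 1.00 along chromosome 10, but from -0.40 to 0.08 along chromosome 14.

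**Figure D5:**
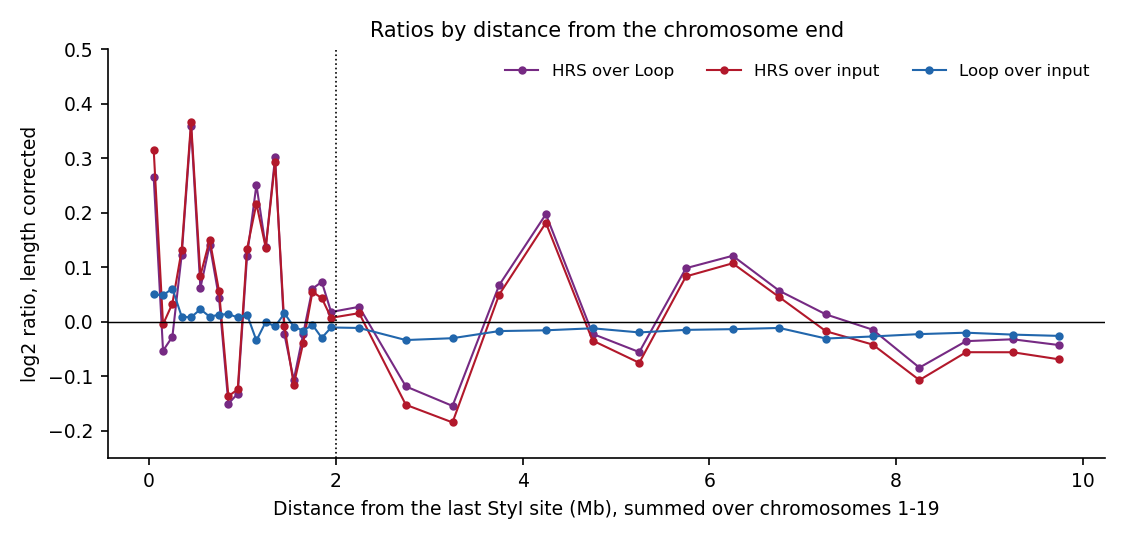
Length-corrected log2 ratios (y axis) of HRS over Loop, HRS over input and Loop over input by distance from the last StyI site in Mb (x axis), from counts summed over chromosomes 1-19 and over the 3 libraries of each group. Points are classes of 100 kb in the last 2 Mb, left of the dotted line, and of 500 kb beyond it. HRS over Loop and HRS over input move together between -0.19 and 0.37, and Loop over input stays within 0.07 of 0.

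The last 100 kb had a higher share of HRS counts at most chromosomes. Summed over the 19 ends, its 2178 fragments had 670.1, 692 and 738 CPM in the HRS libraries, 606, 602 and 611 in the Loop libraries and 565, 555 and 554 in the inputs. The 3 groups did not overlap, with HRS highest and input lowest. As log2 ratios, HRS over Loop came to 0.21, or 0.27 with length corrected, and HRS over input to 0.33 (exact two-sided permutation p = 0.1 for each pair of groups, the smallest that 3 against 3 libraries can give). This class was picked after its values were seen.

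At single chromosomes, the 3 HRS libraries of this class lay above the 3 Loop libraries at 10 of 19 ends and below them at 3, where 22.2% and 36.9% of all 100 kb windows of these chromosomes did so. The median log2 ratio over the 19 ends was 0.23, and the range was -0.72 to 0.96. Chromosome 13 had 46.5, 49.5 and 47.5 CPM in HRS, 24.6, 24.5 and 27.2 in Loop and 31.7, 31.0 and 31.0 in input. Chromosome 16, low over its last 2 Mb as a whole, had 28.7, 30.0 and 32.0 CPM in HRS, 16.7, 14.9 and 15.0 in Loop and 17.5, 18.3 and 19.0 in input in its last 100 kb. In both, HRS was above and Loop at or below the inputs. Chromosome 15 went the other way, with 16.8, 19.3 and 19.6 CPM in HRS, 30.2, 32.2 and 29.5 in Loop and 22.9, 25.3 and 23.1 in input, although its last 2 Mb were higher in HRS. The ratio of the last 100 kb and that of the whole end had opposite signs on chromosomes 5, 8, 15, 16, 17 and 19.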

How the data were processed

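The data are fragment tables of 9 HRS-seq libraries. Per the labels' protocols, StyI ends were ligated to an adaptor with an MmeI site and cut to short tags, so each fragment is counted at its ends. The submitters' processing notes name CASAVA 1.8.2 and mm9. Neither the aligner nor the handling of tags with several matches is stated (not given in the sources used here), so duplicated sequence near telomeres may be under- or overcounted. The deposited values are whole-number counts per StyI fragment, and none of their columns was left unused. The repeat tables were not used. On all 21 chromosomes the final interval, which runs past the last StyI site, was left out. A sequence of the mm9 build was not used here, so no fragment sequence is shown, and genes are from a GRCm38 RefSeq table.

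Counts were summed by fragment midpoint into 2 Mb windows counted back from the last fragment end of each chromosome, so that each end is 1 window, and into 10 kb bins. Each pair of groups (HRS over Loop, HRS over input, Loop over input) was tested with edgeR 4.0.16 (glmQLFit, glmQLFTest) in R 4.3.3. TMM scaling was used, filterByExpr required at least 10 counts, and p was adjusted by Benjamini-Hochberg over all windows or bins with a threshold of 0.05. All 19 ends passed the filter. Only the libraries compared entered a fit, and SEs were derived from the log2 ratio and the F statistic (ratio over root F). CPM values are scaled to the library total, without TMM. The length correction divided fragments into 20 length classes, and the count expected from the library's share of each class entered as an offset with a TMM factor. Shares were compared by exact permutation tests. Intervals of bins are 1-based.

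Alternatives were median-of-ratios (RLE) factors, library totals, no filter, DESeq2 1.42.0, a threshold of 0.01, a joint fit of all 9 libraries, fragments over 200 and up to 2000 bp, scaling to the own chromosome, leaving out the largest fragment, windows of 1 and 5 Mb, each library left out in turn, both replicate 3 fractions left out and the replicate number as a block. Length correction with own-chromosome scaling was added after the data were seen. All 19 ends are named, the 3 highest and lowest against input, and up to 10 regions in each direction among called bins with 1 sign in all pairs and at least the median count. The ends and these lists were chosen with earlier results of these data known. The code was tested on simulated counts.

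HRS and Loop were taken as paired by the number in their titles. Deviations from the group mean correlated between equal numbers with 0.155, 0.101 and 0.224 at 10 kb, each above 0.1, and in 2 Mb windows at 0.814, 0.399 and 0.743. HRS replicate 2 correlated more with Loop replicate 1 (0.12 and 0.674). Without chromosomes 8 and 11 the values for equal numbers were 0.119, 0.0856 and 0.177 at 10 kb, the middle one under 0.1, and 0.714, 0.234 and 0.657 in 2 Mb windows, so the pairing is uncertain.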

Additional observations from a re-analysis of the deposited data

Results flagged for a closer look

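The final interval of each chromosome, left out of the ends because its deposited limit runs past the last StyI site, held few counts, but more of each HRS library than of each input. Over chromosomes 1 to 19 these intervals had 156, 116 and 133 counts in the HRS libraries, 66, 58 and 36 in the Loop libraries and 100, 82 and 81 in the inputs. Scaled to library totals, HRS averaged 2.88 ± 0.611 CPM, Loop 0.861 ± 0.224 and input 1.51 ± 0.0873 (SD, n = 3 each). The groups did not overlap, with HRS highest and Loop lowest (exact two-sided permutation p = 0.1 for each comparison, the smallest that 3 against 3 libraries can give). The interval of chromosome 2 held 52, 26 and 32 of these counts in HRS, against 1, 0 and 0 in Loop and 1, 8 and 4 in input. The sequence behind these counts was not analysed here.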

How the results depend on the processing

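For HRS over Loop, against 6 called ends, the replicate block gave 11 and the block with length correction 11. Length correction with own-chromosome scaling, added after the data were seen, gave 12, and leaving out both replicate 3 fractions 13. Over all 1301 windows, these fits called 713, 658, 635 and 887, against 466 in the main fit, so the counts rose with those of the genome. For HRS over input, against 6, DESeq2 gave 10, own-chromosome scaling 10 and length correction with own-chromosome scaling 12. These fits called 571, 585 and 584 of all windows, against 480. Library totals gave 7 ends, 3 higher and 4 lower, with 490 windows, and kept 5 of the 6 calls. For Loop over input, against 0, DESeq2 gave 6 and own-chromosome scaling 5, with 275 and 298 of all windows called, against 6. Leaving out single libraries gave 4 to 13 ends for HRS over Loop, both replicate 3 fractions included, 3 to 12 for HRS over input and 0 to 7 for Loop over input. Of all windows, 249 were called in the fit with 3 ends, 628 in that with 12 and 456 in that with 7. The replicate block moved the bins called for HRS over Loop to 1782, against 1561, and ended none of the 6 calls of ends. The bins called with the block were 47.7% of those in the ends and 43.2% of all bins, against 41.7% and 38.2% without it.

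For 10 kb bins, keeping fragments over 200 and up to 2000 bp gave 778 called bins for HRS over Loop and 14 for Loop over input, against 1561 and 1545. An adjusted p of 0.01 gave 645 for HRS over input and 866 for Loop over input, against 1103 and 1545. For Loop over input, length correction left 12 and its combination with own-chromosome scaling 31. These were 0.32% and 0.83% of the bins in the ends, against 0.34% and 0.55% of all bins. Leaving out single libraries, both replicate 3 fractions included, gave 1249 to 1785 bins for HRS over Loop, 656 to 1224 for HRS over input and 1027 to 1509 for Loop over input. Without both replicate 3 fractions, 47.6% of the bins in the ends and 42.7% of all bins were called. Shares of all bins are not given for the fragment limit, the threshold of 0.01 and the single libraries. Whether those changes are particular to the ends therefore cannot be said.

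The share of counts in the ends, HRS minus Loop, was 0.06 percentage points for the last 2 Mb but -0.0363 for the last 5 Mb, and 0.0065 to 0.0834 without single libraries. It was 0.0628 to 0.14 for HRS minus input and 0.0425 to 0.069 for Loop minus input. The difference in short fragments between ends and rests turned to -0.474 for HRS minus Loop with a limit of 100 bp, and to -0.0343 for HRS minus input and -0.813 for Loop minus input with 500 bp. Without single libraries it was -0.167 to 0.378, 0.0818 to 0.243 and -0.19 to 0.355 for these comparisons.

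Among single ends near 0, HRS over Loop turned to 0.0099 on chromosome 14 with own-chromosome scaling and to 0.0052 on chromosome 17 with length correction. Without HRS replicate 3 it turned to -0.0132 on chromosome 2, -0.0173 on 4, -0.0391 on 9, 0.0305 on 14 and 0.0389 on 17, the other end of the leave-one-out range being 0.191, 0.192, 0.0785, -0.0556 and -0.0238. For Loop over input, length correction turned chromosome 13 to 0.0154, 14 to 0.0241 and 7 to -0.035, and with own-chromosome scaling as well 13 to 0.0116, 14 to 0.0298, 12 to 0.0116, 7 to -0.028 and 11 to -0.0385. The causes were not tested. Leaving out input replicate 2 or 3 gave 700 or 656 bins of the ends for HRS over input, and leaving out input replicate 2 gave 1027 for Loop over input, without shares of all bins to set beside them. Counting error is small at the depth of an end but larger in 10 kb bins: the chromosome 2 bin with the highest ratio had 77, 101 and 37 Loop counts.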
